A study of Mus musculus with 10 samples.

Results

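The pyruvate dehydrogenase switch of brown fat was followed through 10 genes, found by symbol in a count table of 20295 genes. They were the kinases Pdk1, Pdk2, Pdk3 and Pdk4, the phosphatase genes Pdp1, Pdp2 and Pdpr, the complex subunits Pdha1 and Dlat, and Pcx, which encodes pyruvate carboxylase. All 10 had enough reads to be tested, as did 11229 genes in all. Cold exposure meant 3 days at 4 °C for 5 mice, and 5 control mice stayed at 22 °C. All were single-housed, male C57BL/6JBomTac mice of 8 weeks on chow, labelled WT (wild type). Poly-A RNA of interscapular brown adipose tissue, a depot that burns fuel for heat, was sequenced as 1 library per mouse.

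Pyruvate from glycolysis or lactate enters mitochondria through a carrier and meets a branch point. The pyruvate dehydrogenase complex turns it into acetyl-CoA, and pyruvate carboxylase turns it into oxaloacetate. The kinases switch the complex off by phosphorylating its Pdha1 subunit, and the phosphatases remove these phosphates and switch it on again. In fat, oxaloacetate made by pyruvate carboxylase refills the tricarboxylic acid cycle and feeds the synthesis of glycerol phosphate and of fatty acids.

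Library totals were 5676963 to 6923932 counts in cold and 4446163 to 5776905 in control libraries. Ucp1, the defining gene of brown fat, was at 17145 to 19457 CPM in cold and 8061 to 9934 CPM in control libraries. CPM is the count per 1000000 counts of the library after TMM scaling, a correction for differences in composition. Control replicate 2 and cold replicate 5 stood apart from their groups on the second principal component of log2 CPM, at -23.5 for the cold library and -36.5 for the control library. Brown adipocyte markers, 11 genes with Ucp1 among them, summed to 36851 to 42206 CPM in cold and 26779 to 29998 CPM in control libraries. Of the 11 genes, 3 rose and 2 fell. Skeletal muscle markers, 13 genes, summed to 8.21 to 419 CPM in cold and 6.88 to 104 CPM in control libraries. Cold replicates 2 and 3 held the most, and Ckm, the muscle creatine kinase, was at 0 in control replicates 3 and 5. Endothelial markers, 6 genes of which 2 rose, summed to 744 to 891 CPM in cold and 594 to 769 CPM in control libraries. Macrophage markers, 6 genes of which 1 rose, summed to 29.3 to 106 CPM in cold and 46.4 to 69.8 CPM in control libraries. Fibroblast and mural markers, 7 genes of which 0 rose and 0 fell, summed to 306 to 851 CPM in cold and 438 to 614 CPM in control libraries. Cold replicate 5 held the lowest of these sums. The sums of erythroid, white adipocyte and nerve markers overlapped between the groups, and 1 erythroid and 1 white adipocyte marker rose. The part of these cell types in the results below was not tested.

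Of the 10 genes, 2 rose and 1 fell after cold exposure at an adjusted p under 0.05 in edgeR's quasi-likelihood test, with Benjamini-Hochberg adjustment across the 11229 genes. Pdk3 and Pdk4, both kinases, rose, and Pcx fell. Over the whole transcriptome 19.3% of genes passed this test, 10.2% higher and 9.16% lower in the cold. The other 7 genes did not pass. The median log2 fold change, always cold over control, was 0.26 over the 10 genes and -0.02 over all genes tested. In bulk tissue, fewer cells of a type and less RNA per cell cannot be told apart.

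**Figure D1:**
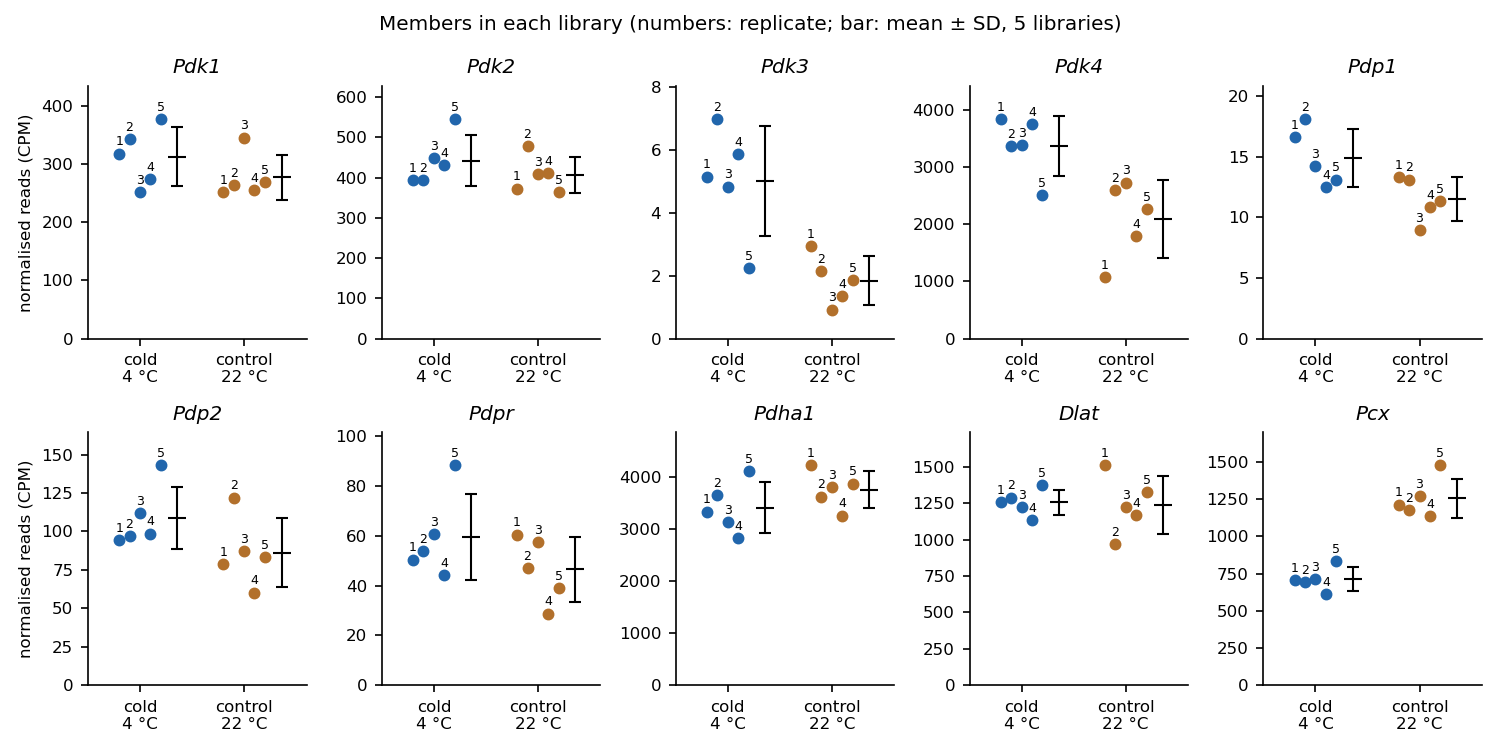
Normalised reads (CPM) of the 10 genes in each of the 10 libraries, with cold (blue) left of control (brown), the replicate number at each point and black bars for mean ± SD over 5 libraries. The groups separate fully for Pcx, with cold libraries at 612 to 835 CPM and control libraries at 1134 to 1477 CPM.

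The sequences around the transcription starts of the 3 genes that changed are shown because these genes carry the result. They are RefSeq windows on the reference build GRCm38.p6, each read 5′ to 3′ on the strand of its gene, and 9 of the 10 genes had an entry. Pdp1 had none. The Pdk4 window lies at chr6:5496229-5496528 on the minus strand, and that of Pdk3 at chrX:93832101-93832400 on the minus strand. Pcx has windows for a distal start at chr19:4510222-4510521 and a second start at chr19:4594069-4594368, both on the plus strand. Capitals mark the motifs found among the 7 searched.
Pdk4: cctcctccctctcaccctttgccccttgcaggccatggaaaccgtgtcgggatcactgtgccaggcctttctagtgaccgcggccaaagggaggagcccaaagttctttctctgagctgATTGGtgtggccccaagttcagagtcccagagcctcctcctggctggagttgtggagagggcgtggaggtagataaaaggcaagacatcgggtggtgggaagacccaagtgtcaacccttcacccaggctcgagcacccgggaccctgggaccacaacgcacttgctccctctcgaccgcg
Pdk3: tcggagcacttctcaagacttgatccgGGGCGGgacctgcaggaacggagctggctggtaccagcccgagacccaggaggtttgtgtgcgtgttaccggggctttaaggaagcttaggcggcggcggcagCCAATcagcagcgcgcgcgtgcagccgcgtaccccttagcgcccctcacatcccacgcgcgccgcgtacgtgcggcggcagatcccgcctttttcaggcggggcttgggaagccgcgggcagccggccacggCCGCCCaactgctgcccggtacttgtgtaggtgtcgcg
Pcx distal start: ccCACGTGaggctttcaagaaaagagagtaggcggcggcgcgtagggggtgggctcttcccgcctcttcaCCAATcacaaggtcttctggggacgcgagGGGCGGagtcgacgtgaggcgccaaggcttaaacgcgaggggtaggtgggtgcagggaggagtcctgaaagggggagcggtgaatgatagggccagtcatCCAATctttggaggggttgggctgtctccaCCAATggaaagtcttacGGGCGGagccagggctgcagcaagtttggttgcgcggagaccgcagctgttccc
Pcx second start: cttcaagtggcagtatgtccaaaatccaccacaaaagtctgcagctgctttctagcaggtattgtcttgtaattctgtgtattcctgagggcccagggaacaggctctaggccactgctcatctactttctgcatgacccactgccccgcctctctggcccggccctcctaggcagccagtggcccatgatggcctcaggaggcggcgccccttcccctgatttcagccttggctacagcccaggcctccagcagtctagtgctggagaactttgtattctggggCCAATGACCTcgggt

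The motifs were searched on both strands. They were a nuclear receptor element (AGGTCA), its extended form for estrogen-related receptors (TNAAGGTCA, which contains the shorter element), a FOXO element (GTAAACA), a cAMP response element core (TGACG), an E-box (CACGTG), the CCAAT box, spelled as it is named, and a GC box (GGGCGG). The Pdk4 window held 1 CCAAT box, read on the opposite strand, 131 bases before the start. Pdk3 held 1 CCAAT box 120 bases before its start and 2 GC boxes. The distal Pcx window held an E-box, 3 CCAAT boxes and 2 GC boxes. The second Pcx window held a nuclear receptor element that overlaps a CCAAT box. Their first bases in the window lie 40 and 36 bases after the start, in that order.

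Of all 32851 promoter windows in the RefSeq table, 37.4% held a CCAAT box, 35.7% a GC box, 7.15% an E-box and 16.3% the nuclear receptor element. The other motifs were in 20.8% (cAMP core), 3.65% (FOXO) and 1.28% (extended receptor element) of windows. None of these 3 motifs was found in the 4 windows printed, which says only that those letters are not in them. A match is a description of the letters and not a binding site.

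Pdk4 is the kinase known to rise with fasting and fat use in muscle and heart, and it was the most abundant kinase transcript here. Its counts were made over 3453 bases of a gene at chromosome 6, 5433351 to 5446278 (mm9, minus strand). It was at 3839.7, 3360.4, 3376, 3746 and 2505 CPM in cold replicates 1 to 5. Control replicates 1 to 5 held 1075, 2594, 2728, 1786 and 2266 CPM. Cold replicates 1 to 4 lay above every control library, while cold replicate 5 lay below control replicates 2 and 3.

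Pdk4 averaged 3365 ± 527 CPM in cold and 2089.8 ± 674 CPM in control libraries (SD, n = 5 each), a 1.61-fold rise. Its log2 fold change was 0.69 (SE 0.21, adjusted p = 0.0362 in edgeR's quasi-likelihood test). The cold libraries varied by 15.7% of their mean and the control libraries by 32.2%. Leaving out 1 library at a time ended the call in 6 of 10 fits, namely those without cold replicates 1, 2, 3 and 4 and control replicates 4 and 5, with an adjusted p of up to 0.0847. It was lost in the robust form of the same edgeR fit too (adjusted p = 0.0629). The authors' deposited table gives Pdk4 a log2 fold change of 0.68 and an FDR of 0.00645. Its FDRs for Pcx (1.96e-09) and Pdk3 (0.000618) also lie below the adjusted p-values found here, and its test is not named beyond edgeR.

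Without cold replicates 2 and 3, the libraries with the most muscle markers, the estimate was 0.69 again, with edgeR's adjusted p = 0.141 from 8 libraries. Without control replicate 2 and cold replicate 5 it was 0.86 (adjusted p = 0.00767).

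Pdk3, a kinase known for its expression in testis and brain, was scarce. Its reads were counted over 2000 bases of a gene at chromosome X, 91009955 to 91077434 (mm9, minus strand). Cold replicates 1 to 5 held 30, 45, 34, 37 and 12 reads, or 5.14, 6.98, 4.83, 5.85 and 2.24 CPM. Control replicates 1 to 5 held 13, 11, 4, 8 and 9 reads, or 2.93, 2.15, 0.917, 1.34 and 1.85 CPM. Of the cold libraries, replicates 1 to 4 lay above every control, and replicate 5 lay within the control range.

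Pdk3 averaged 5.01 ± 1.75 CPM in cold and 1.84 ± 0.774 CPM in control libraries (SD, n = 5 each). The rise was 1.45 on the log2 scale (SE 0.34, 2.74-fold, edgeR adjusted p = 0.00988), the largest change of the 10 genes. It passed in all 10 fits that left out 1 library, between 1.29 and 1.66. Without the pair of cold replicates 2 and 3, which held the most muscle markers, it was 1.27 (edgeR adjusted p = 0.0845). That fit called 503 genes higher and 384 lower over all genes tested, against 1142 and 1029 with all 10 libraries.

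Pdk2, a widely expressed kinase, was the second most abundant of the family. Its cold libraries held 394, 394, 448, 431 and 546 CPM and its control libraries 373, 478, 408, 411 and 364 CPM, in replicate order. The groups overlapped, and the log2 fold change was 0.12 (SE 0.11, adjusted p = 0.453 in edgeR's test).

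Pdk1, which is known as a target of hypoxia-inducible factor, was at 318, 343, 252, 274 and 378 CPM in cold replicates 1 to 5. Its control libraries held 252, 264, 346, 255 and 269.6 CPM. The log2 fold change was 0.17 (SE 0.12, adjusted p = 0.342 in edgeR's test), and only cold replicate 5 exceeded the highest control. For Pdk1 and Pdk2 no fit that left out 1 library gave a call, with estimates of 0.09 to 0.26 for Pdk1 and 0.03 to 0.18 for Pdk2.

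**Figure D2:**
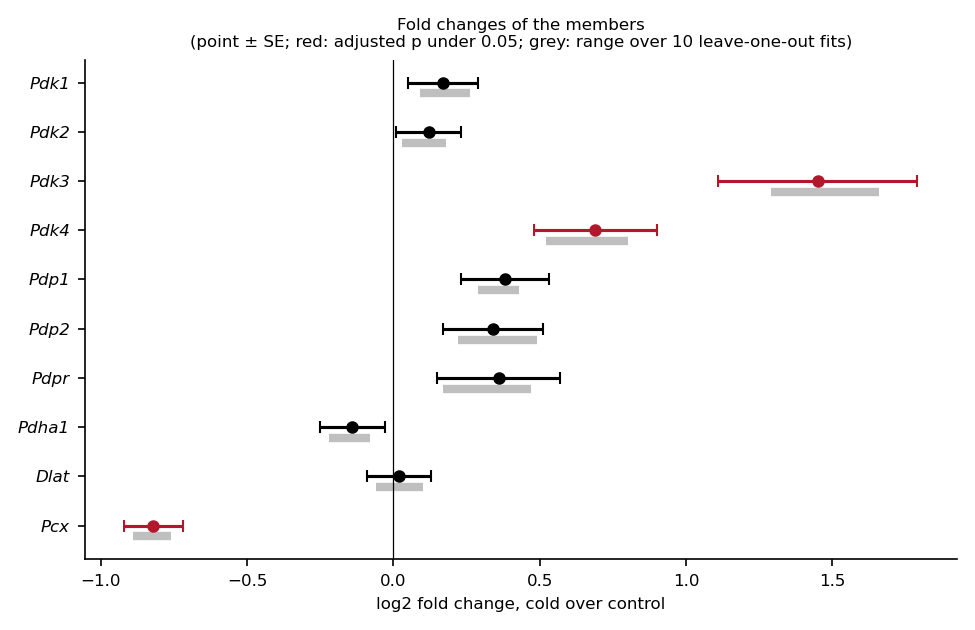
Log2 fold change of each gene, cold over control, with its SE from edgeR's quasi-likelihood fit, red where the adjusted p was under 0.05, and grey bars for the range of estimates without single libraries. Pdk3 at 1.45 and Pdk4 at 0.69 lie to the right of 0, Pcx at -0.82 to the left, and the other 7 genes between -0.14 and 0.38.

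Levels of different genes are compared per length, as RPKM, the CPM per 1000 counted bases. The kinases together summed to 1350.2, 1217, 1227, 1331 and 1041 RPKM in cold replicates 1 to 5. In control replicates 1 to 5 they summed to 526, 1015, 1037, 749 and 870.1 RPKM. The lowest cold sum, that of replicate 5, thus lay just above the highest control sum, that of replicate 3, after TMM scaling. Their TMM factors were 0.943885 and 0.981075, and on unscaled library totals the order of these libraries reverses, so the groups overlap. The kinase sums follow Pdk4, which made up 78.7 ± 5.13% of the kinase RPKM in cold and 70.8 ± 7.09% in control libraries (SD, n = 5 each).

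Pdk2 made up 16.2 ± 4.10% in cold and 22.5 ± 5.60% in control libraries, and Pdk1 4.98 ± 1.28% in cold and 6.65 ± 1.57% in control libraries. Pdk3 contributed 0.200 ± 0.0643% in cold and 0.125 ± 0.0897% in control libraries. The share of Pdk4 overlapped between the groups, at 69.7 to 82.4% in cold and 59.1 to 76.2% in control libraries. The lowest cold share, that of replicate 5, lay above those of control replicates 1 and 4 and below the other 3 controls.

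**Figure D3:**
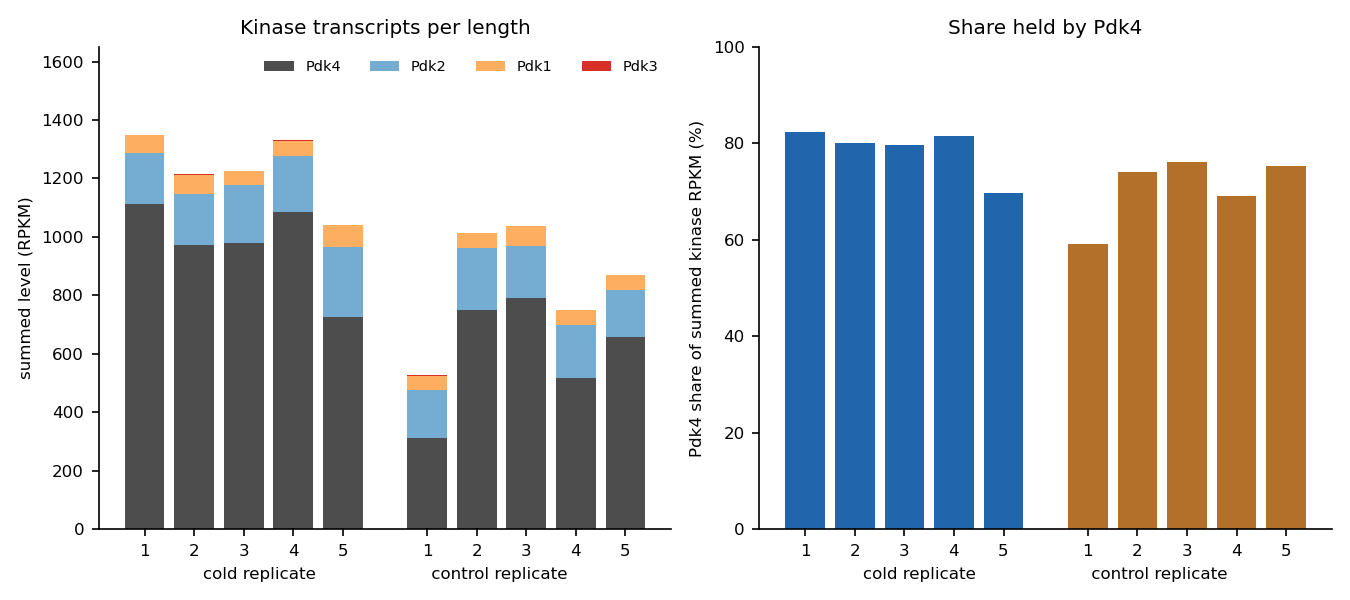
Left, RPKM of the 4 kinases stacked in each library, with cold replicates 1 to 5 left of control replicates 1 to 5, and right, the share of Pdk4 in that sum, in percent. Cold sums lie at 1041 to 1350.2 RPKM and control sums at 526 to 1037 RPKM, and Pdk4 holds 59.1 to 82.4% of each.

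None of the 3 phosphatase genes passed the test. By RPKM each lay below Pdk1, Pdk2 and Pdk4 and above Pdk3 in every library. Pdp2, a catalytic subunit that calcium does not stimulate, was at 94.4, 96.9, 112, 98.6 and 143 CPM in cold replicates 1 to 5. Its control libraries held 78.8, 122, 87.1, 60.2 and 83.4 CPM. Every cold library lay above the control median, but control replicate 2 exceeded all cold libraries except replicate 5. The log2 fold change was 0.34 (SE 0.17, adjusted p = 0.179 in edgeR's test). Without control replicate 2 it was 0.49 (adjusted p = 0.0239), and without that library and cold replicate 5 it was 0.38 (adjusted p = 0.0245).

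Pdp1, the catalytic subunit that calcium stimulates, held 16.6, 18.1, 14.2, 12.5 and 13.1 CPM in cold replicates 1 to 5. It held 13.3, 13.1, 8.94, 10.8 and 11.3 CPM in control replicates 1 to 5. Cold replicates 1, 2 and 3 lay above every control (log2 fold change 0.38, SE 0.15, adjusted p = 0.0978 in edgeR's test). By RPKM, Pdp2 made up 89.6 ± 2.62% of the catalytic phosphatase transcripts in cold and 89.8 ± 2.34% in control libraries.

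Pdpr encodes the regulatory subunit that restrains the phosphatase. It was at 44.1 to 88.3 CPM in cold libraries, with a median in replicate 2 of 53.8 CPM. In control libraries it was at 28.7 to 60.5 CPM, with a median in replicate 2 of 47 CPM. The log2 fold change was 0.36 (SE 0.21, adjusted p = 0.265 in edgeR's test), and 0.17 without cold replicate 5, the library with the highest value.

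The kinase sum was 36.6 ± 8.08 times the sum of Pdp1 and Pdp2 in cold and 31.3 ± 7.65 times in control libraries, by RPKM (SD, n = 5 each). The ratio overlapped between groups, at 23.6 to 43.7 in cold and 20.5 to 38.4 in control libraries. Relative to Pdha1, the kinase sum was at 0.8 ± 0.177 in cold and 0.488 ± 0.134 in control libraries. The groups overlapped, at 0.547 to 1.02 in cold and 0.269 to 0.604 in control libraries, with cold replicate 5 below control replicates 2 and 3. Pdp1 and Pdp2 together were at 0.022 ± 0.00242 in cold and 0.0158 ± 0.00396 in control libraries. Of the controls, only replicate 2, at 0.0226, lay within the cold range of 0.0189 to 0.0244.

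Pdha1 encodes the subunit that decarboxylates pyruvate and carries the regulatory phosphates. By RPKM it was the most abundant of the 10 in every library. Its CPM was 3335, 3645, 3136, 2824 and 4109 CPM in cold replicates 1 to 5. Control replicates 1 to 5 held 4223, 3623, 3810.4, 3257 and 3871 CPM. The ranges overlapped, and the log2 fold change was -0.14 (SE 0.11, adjusted p = 0.39 in edgeR's test). Its gene span overlaps Map3k15, a kinase gene on the other strand, by 1133 bases in the table, and no strand setting is given. Map3k15 was at 4.55 CPM in cold and 2.81 CPM in control libraries.

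Dlat encodes the acetyltransferase that forms the core of the complex. Cold replicates 1 to 5 held 1258, 1287, 1223, 1135 and 1373 CPM, and control replicates 1 to 5 held 1509, 966, 1221, 1167 and 1327 CPM. Its log2 fold change was 0.02 (SE 0.11, adjusted p = 0.916 in edgeR's test), and its sign depended on single libraries, with -0.06 without control replicate 2 and 0.10 without control replicate 1. The cold libraries spread by 6.95% of their mean, the control libraries by 16.2%.

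The other subunits of the complex did not pass the test either. Pdhb, the partner of Pdha1, was at 1478 to 1855 CPM in cold and 1586 to 2533 CPM in control libraries (log2 fold change -0.31, adjusted p = 0.0981 in edgeR's test). Dld, the dehydrogenase that reoxidises lipoate, had a log2 fold change of 0.18 (adjusted p = 0.132), and Pdhx, which binds Dld to the core, 0.16 (adjusted p = 0.16). By length, Pdha1 was at 1580.1 ± 228 RPKM in cold and 1741 ± 164 RPKM in control libraries. Pdhb was at 1142 ± 99.4 RPKM in cold and 1416 ± 269 RPKM in control libraries, and Dlat at 311 ± 21.6 RPKM in cold and 307 ± 49.7 RPKM in control libraries.

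Pcx fell. Pyruvate carboxylase is a mitochondrial, biotin-dependent enzyme, and its reads were counted over 4148 bases of a gene at chromosome 19, 4510472 to 4621752 (mm9, plus strand). Cold replicates 1 to 5 held 706, 690, 711, 612 and 835 CPM. Control replicates 1 to 5 held 1214, 1178, 1272, 1134 and 1477 CPM. Every cold library lay below every control library, which held for 1 of the 10 genes. Of all genes tested, 14.0% had groups that did not overlap, 7.39% with the cold libraries higher and 6.58% with them lower.

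Pcx averaged 711 ± 80.1 CPM in cold and 1255 ± 134 CPM in control libraries (SD, n = 5 each). Its log2 fold change was -0.82 (SE 0.10, adjusted p = 0.000124 in edgeR's test), which leaves 0.566 of the control level. It passed in all 10 fits that left out 1 library, between -0.89 and -0.76. Without control replicate 2 and cold replicate 5 it was -0.91, and without cold replicates 2 and 3 it was -0.81, both past the threshold. The gene span overlaps Lrfn4 on the other strand, which was at 2.06 CPM in cold and 3.21 CPM in control libraries.

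The order of the 10 genes differed between the groups around Pcx. By RPKM, Pdk2 lay above Pcx in 5 of 5 cold libraries and in 0 of 5 control libraries. Pcx lay above Dlat in 0 cold and 3 control libraries. Pdk4 lay above Dlat in all 5 cold libraries and in 4 of the controls, control replicate 1 being the exception. The other places were the same in every library, with Pdha1 at the top and Pdk1, Pdp2, Pdpr, Pdp1 and Pdk3 at the bottom in that order.

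Not all neighbours in this order differed beyond their spread. In the cold group the ranges of Pdk2 and Pcx overlapped, as did those of Pdp2 and Pdpr and of Pdp1 and Pdk3. In the control group those of Pdk4 and Dlat, of Dlat and Pcx and of Pdp2 and Pdpr overlapped.

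Relative to Pdha1, Pcx stood at 0.11, 0.0985, 0.118, 0.113 and 0.106 in cold replicates 1 to 5, by RPKM. In control replicates 1 to 5 the ratio was 0.15, 0.169, 0.174, 0.181 and 0.199. The groups did not overlap, and neither cold replicate 5 nor control replicate 2 lay at the edge of the gap between them. The ratio of Pcx to Pdk4 was at 0.136 to 0.277 in cold and 0.378 to 0.94 in control libraries. It sets a gene that fell against a gene that rose in the same libraries, so its separation is no further result. These ratios describe relative transcript levels and were not tested, and they say nothing of enzyme amount or flux.

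**Figure D4:**
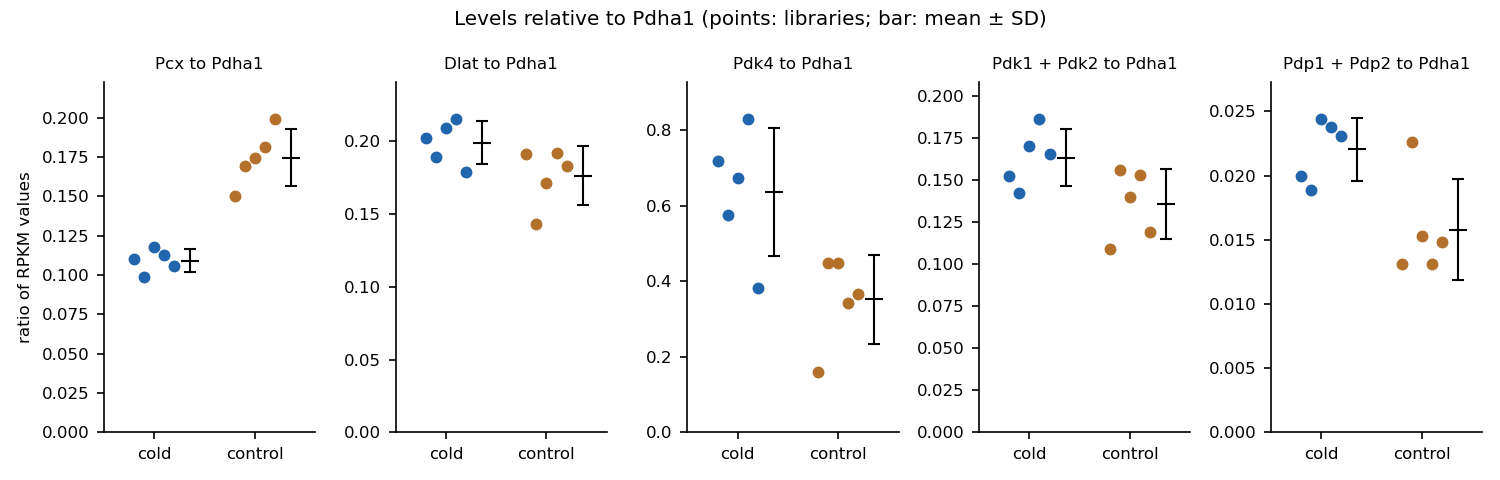
RPKM of Pcx, Dlat, Pdk4, Pdk1 plus Pdk2, and Pdp1 plus Pdp2, each divided by the RPKM of Pdha1 in the same library, with cold libraries in blue, control libraries in brown and bars for mean ± SD over 5. Of these ratios, Pcx to Pdha1 keeps the groups apart, at 0.0985 to 0.118 in cold and 0.15 to 0.199 in control libraries.

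Cold replicate 5 held the highest cold value for 7 of the 10 genes, namely Pdk1, Pdk2, Pdp2, Pdpr, Pdha1, Dlat and Pcx. It held the lowest cold value for Pdk3 and Pdk4, the 2 genes that rose. Cold replicate 4 held the lowest cold value for 5 of the 10 genes. How often each library was highest or lowest over all genes tested was not counted. Cold replicate 5 was also nearest to the controls on the first principal component, at 6.7. Its group mates lay at 24.2 to 31.7 there, and the controls at -30.6 to -18.1.

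The genes most like the changed ones were sought among the 8898 genes with a mean log2 CPM of at least 3. Likeness was the root mean square difference of log2 CPM over the 10 libraries, each gene centred on its own mean. Aldh2, a mitochondrial aldehyde dehydrogenase, lay nearest to Pcx, at 0.0998, followed by Enpp5 at 0.108 and Fundc2 at 0.109, against a spread of Pcx itself of 0.433. C3, a complement component, lay nearest to Pdk4 at 0.162, then Klf11 at 0.206 and Syt11 at 0.23, against a spread of 0.532. Npr3, a natriuretic peptide clearance receptor, lay nearest to Pdk3 at 0.347, then Dusp6 at 0.352 and Nceh1 at 0.353, against 0.808. Pdk3 itself lay below the level asked of these genes, with a mean log2 CPM of 1.968 in the authors' deposited table. What its low counts add to its distances was not tested. The difference between the groups enters the distances of all 3 members.

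Around the branch point, 7 lists of other genes held 65 tested members, of which 12 rose and 9 fell. That is 32.3% called, against 19.3% of all genes, with a median log2 fold change of 0.00 against -0.02. With single libraries left out 7 to 14 rose and 5 to 12 fell. Of the higher genes 7 were called without cold replicate 1 or without cold replicate 3, and of the lower ones 5 without cold replicate 2. Without cold replicates 2 and 3 together 4 rose and 3 fell, and neither the carrier subunits nor any of the factors known to act on Pdk genes was called.

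The 2 subunits of the mitochondrial pyruvate carrier went in opposite directions. Mpc1 was at 939.8, 914, 819, 793 and 1032 CPM in cold replicates 1 to 5 and at 1214, 988, 1114, 1091 and 1265 CPM in control replicates 1 to 5. It fell by 0.33 on the log2 scale (SE 0.09, edgeR adjusted p = 0.0253). Mpc2 was at 1108, 1065, 1085, 995 and 1051 CPM in cold replicates and at 911, 678, 866, 893 and 919.9 CPM in control replicates, and rose by 0.31 (SE 0.09, adjusted p = 0.026).

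For Mpc1, 6 of the 10 fits without 1 library kept the call, and for Mpc2 7 did, with adjusted p-values of up to 0.0706 and 0.0629. By RPKM the ratio of Mpc2 to Mpc1 was 0.955 to 1.24 in cold and 0.644 to 0.768 in control libraries, so that the carrier transcripts were in reversed order in 4 of the 5 cold libraries.

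The sister complexes of pyruvate dehydrogenase are built from like parts, and 3 of their 8 tested genes rose and 2 fell. The share called was 62.5%, against 19.3% of all genes tested. Dbt, the core of the branched-chain complex, rose to 517 ± 58.6 CPM in cold, against 299 ± 41.2 CPM in control libraries (log2 fold change 0.79, SE 0.11, edgeR adjusted p = 0.000308). Bckdhb, a subunit of its dehydrogenase, rose by 0.58 and its partner Bckdha fell by 0.41. Dlst, the core of the oxoglutarate complex, rose by 0.21 (adjusted p = 0.0427), a call kept in 2 of the 10 fits without 1 library. Bckdk, the relative of the Pdk kinases that switches off the branched-chain complex, was at 120.4 to 136 CPM in cold and 146 to 205 CPM in control libraries. It fell by 0.47 (SE 0.09, adjusted p = 0.00356), while Pdk3 and Pdk4 rose.

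Biotin is the cofactor that Pcx shares with a few other carboxylases, and of 8 genes in this list 2 fell and 0 rose, with a median of -0.17. The share called was 25.0%, against 19.3% of all genes tested. Pccb, of propionyl-CoA carboxylase, fell by 0.59 (SE 0.10, edgeR adjusted p = 0.00146), with cold libraries at 391 to 571 CPM and control libraries at 655 to 711 CPM. Acaca, the acetyl-CoA carboxylase of fatty acid synthesis, fell by 0.76 (SE 0.21, adjusted p = 0.0215), a call kept in 6 of the 10 fits without 1 library. Its relative Acacb was at 0.18 (adjusted p = 0.294) and Pcca, the partner of Pccb, at 0.15 (adjusted p = 0.23).

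Of 14 genes that supply lipoate and thiamine, cofactors of the complex, 1 rose and 2 fell. The share called, 21.4%, was near the 19.3% of all genes tested. Glrx5, a glutaredoxin of iron-sulfur cluster assembly, rose by 0.41 (edgeR adjusted p = 0.00663). Isca2, of the same pathway, fell by 0.30 (adjusted p = 0.0156). The lipoate synthase Lias was at -0.20 (adjusted p = 0.112).

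Among 16 tested enzymes that act on pyruvate or on oxaloacetate, 3 rose and 2 fell (31.2% called, against 19.3% of all genes tested). Got1, the cytosolic aspartate aminotransferase, which acts on oxaloacetate, rose to 133 to 153 CPM in cold, against 25.9 to 70 CPM in control libraries (log2 fold change 1.80, SE 0.21, edgeR adjusted p = 0.000119). Its mitochondrial relative Got2 rose by 0.54. Ldha, a lactate dehydrogenase subunit and the 1 of these 3 that acts on pyruvate, rose by 0.35. Gpt, an alanine aminotransferase, fell by 0.44 (adjusted p = 0.00374). Ldhd, the dehydrogenase of D-lactate, fell by 0.49 (adjusted p = 0.0242), a call kept in 5 of the 10 fits without 1 library. Pck1, which uses oxaloacetate for glycerol phosphate synthesis, was at -0.36 (SE 0.21, adjusted p = 0.254).

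Of 14 genes for factors known to act on Pdk genes in other tissues, 4 rose and 0 fell. The share called was 28.6%, against 19.3% of all genes tested. Hif1a was higher by 0.39, Epas1, its close relative, by 0.33, Ppard by 0.49 and Esrra by 0.29, with adjusted p-values of 0.0196 to 0.0387 in edgeR's test. These calls were kept in 8, 6, 4 and 4 of the 10 fits without 1 library, in that order. Without cold replicate 1, 3 or 4 or control replicate 4 the list had 1 higher gene, and without cold replicate 5 it had 2. Ppara, the fatty acid receptor, was at 0.13 (adjusted p = 0.665) and Foxo1 at -0.13 (adjusted p = 0.756). Ppargc1a was at -0.20 (adjusted p = 0.836), with 194 to 342 CPM in cold and 81.4 to 991 CPM in control libraries. The highest value was that of control replicate 2, and without it the log2 fold change was 1.02 (edgeR adjusted p = 0.0159).

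**Figure D5:**
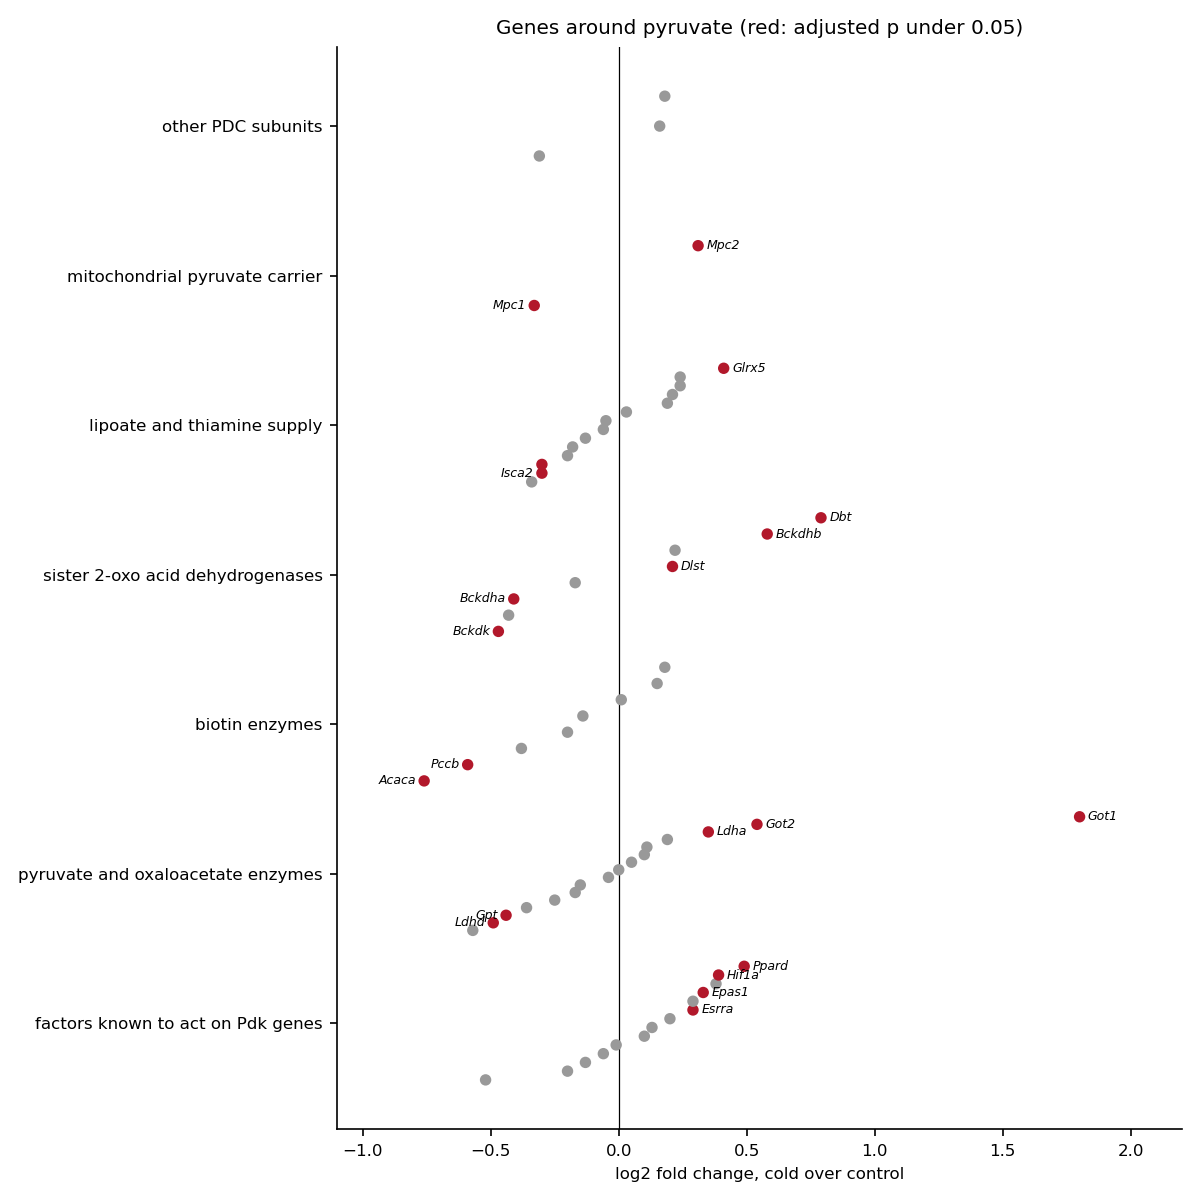
Log2 fold change, cold over control, of the 65 tested genes in 7 lists around the pyruvate branch point, red where the adjusted p in edgeR's test was under 0.05 and grey otherwise, with 20 of the 21 red points named. Got1 lies farthest to the right at 1.80, Mpc1 and Mpc2 lie on opposite sides of 0, and the called biotin enzymes lie to the left.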

How the data were processed

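The counts are deposited whole numbers of reads per RefSeq gene model, per the file headers and values. The submitters' processing notes name STAR, edgeR and mm9, without versions. Read counter and strand setting were not given in the sources used here. Per the file headers, the authors' deposited table pairs each gene with a log2 fold change, a p-value and an FDR. Gene lengths for RPKM are the counted bases in the deposited count table.

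Samples were grouped by title (the treatment label of cold samples reads room temperature beside 4 °C), and control columns, which carry no group word, were matched by replicate number. The test was edgeR 4.0.16's quasi-likelihood F test (R 4.3.3) with TMM scaling, filterByExpr and no covariate, two-sided, at an adjusted p of 0.05. It was tested on simulated data. SE is the fold change divided by the square root of F. P-values judge the difference between the groups against the spread between mice, 5 a group.

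The 10 genes and the lists were chosen with earlier results of these data known. From each list up to 6 called genes are named, or the 2 with the smallest p (Pdhx, Lias, Acacb, Pcca, Pck1, Ppara, Foxo1 and Ppargc1a were added after their values were seen). One called gene of the lists is not reported here by name. For each called member the 3 most like genes are named. Alternatives were other scalings, filters, DESeq2 1.42.0, limma-voom (limma 3.58.1), a robust fit, a replicate block and left-out libraries. Of 50-base stretches of GENCODE transcripts, 12.9% of those of Pdha1 occur in other genes, mostly on the opposite strand in Map3k15, 1.75% of those of Pdpr, 1.40% of those of Pdk4, 0.0709% of those of Pdp2 and 0% of those of the other 6 genes. No replicate pair agreed within sampling noise (chi-square per degree of freedom 3.09 to 37.8).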

Additional observations from a re-analysis of the deposited data

Results flagged for a closer look

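Pdk1 in control replicate 3, at 346 CPM, lay far from the other 4 control libraries, which held 252 to 269.6 CPM. The gap was 0.813 of the range of the group. Of 20 groups of 5 libraries examined, 2 for each of the 10 genes, 1 was marked in this way, and chance marks about 1 in 20. Without this library the log2 fold change of Pdk1 was 0.26 (edgeR adjusted p = 0.142).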

How the results depend on the processing

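Pcx passed in every fit run. Pdk3 passed in all but the one without cold replicates 2 and 3 together (1.27, adjusted p = 0.0845), an alternative chosen after seeing the data. There 503 genes rose and 384 fell, with 8 libraries, and 0 members rose. Pdk4 lost its call there (0.69, adjusted p = 0.141), in the robust fit (0.69, 0.0629) and with the replicate block (0.74, 0.0522), and 1 member rose in each of the last 2 fits. Replicate numbers mark no shared litter or day in the labels, and same-numbered libraries deviated together with r of -0.25 to 0.19, so the block is a check only. It moved no other member's call. With 1 library left out 1 to 3 members rose, Pdk4 lay at 0.52 to 0.80, Pdp2 at 0.22 to 0.49 and Dlat at -0.06 to 0.10, and 7 to 14 listed genes rose and 5 to 12 fell. Without control replicate 2 and cold replicate 5, Pdp2 was called at 0.38 (adjusted p = 0.0245) and Dlat was at -0.10. The cause of these moves was not tested, beside the smaller number of libraries. Scaling by RLE, upper quartile or library totals, the filters, DESeq2 and limma-voom changed no member's call. The fewest reads were those of Pdk3, at 4 to 45 a library, and Pdp1, at 39 to 117, and what depth adds to their spread was not tested.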
